A study of Mus musculus with 18 samples.

Results

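The glycolytic enzymes, the glucose and lactate transporters and the hypoxia-response genes of mouse CD8+ T cells are described here across 2 guide RNAs and 3 doses of lithocholic acid (LCA), a bile acid that gut bacteria form from the liver's own bile acids. A list of names, drawn up with earlier results of these data known, gave the 35 genes, out of 24537 in the count table. All 35 held enough counts to be tested, among 11651 genes tested in all. They fall into 5 roles: 4 transporters, 15 glycolytic enzymes, 3 kinases that set the flow of the pathway, 10 targets of the hypoxia-inducible factor (HIF), and 3 genes of HIF itself and its oxygen sensors. Cells were naive CD8+ T cells that were edited with Cas9-guide complexes, then activated with antibodies to CD3 and CD28, then kept overnight with or without LCA. Those given a scrambled guide are labelled WT, and those given guides from a commercial kit against Nur77, the nuclear receptor encoded by Nr4a1, are labelled KO. The 6 groups of 3 libraries were WT control, WT LCA10 (10 µM), WT LCA50 (50 µM), KO control, KO LCA10 and KO LCA50. The WT cells thus also went through the editing procedure and activation, and the KO cells are an edited population rather than a clone or a germline knockout. Strain, sex and age of the mice are not given in the sources used here, and nothing says whether the 3 libraries of a group were grown from different cultures or mice. The p-values therefore reflect only how these libraries scatter, and that scatter may be technical.

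Glycolysis splits glucose into pyruvate in the cytosol, and activated T cells run it at a high rate, turning much of the pyruvate into lactate that leaves through monocarboxylate transporters. HIF is a transcription factor whose alpha subunit is marked for destruction by oxygen-dependent prolyl hydroxylases (the EGLN enzymes). When oxygen is low, or when T cell receptor signals raise the subunit, HIF binds short DNA sequences and raises transcription of glucose transporters, nearly the whole of the glycolytic pathway, and genes that limit the use of oxygen by mitochondria. Several of its targets, EGLN3 among them, act back on HIF. Nur77 is an immediate early gene of T cell receptor signalling.

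Libraries held 4113713 to 5945518 counts. The CD8 T cell markers were high in every library (7 markers together 3472 to 4538 CPM, counts scaled to library size), and Cd4 had 0 to 6 counts. Of the other CD4 T cell markers, Foxp3 had 41 to 88 counts, Zbtb7b 1 to 84 and Cd40lg 0 to 9. Nr4a1 itself had 29 to 84 counts in the 9 WT libraries (median 55) and 36 to 71 in the 9 KO libraries (median 48). Its transcript therefore did not separate the labels, and transcript counts do not show whether the gene was edited. The 8 myeloid markers summed to 34.6 to 68.6 CPM in the WT libraries and 10.0 to 25.5 in the KO libraries, without overlap, and 4 of the 8 were called lower in KO. Of the myeloid markers, Ngp had no count in 8 libraries, S100a8 and S100a9 in 7 each, Elane in 6 and Csf1r in 1. The 7 red cell and platelet markers summed to 19.8 to 44.7 CPM in WT control, 3.13 to 9.47 in WT LCA10 and 4.52 to 34.6 in WT LCA50, and to 0.377 to 4.73, 3.80 to 15.6 and 2.38 to 3.93 in the KO groups. A background of 1477 olfactory, vomeronasal and trace amine receptor genes, which T cells do not use, was at 50.4 to 108 CPM in WT control and 122 to 224 in WT LCA50. The library KO LCA50 replicate 1 lay apart from its group, with a receptor background of 166 CPM against 47.8 and 93.4 in the other two. In bulk RNA, having fewer cells of a type and having less RNA in each of them cannot be told apart.

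The promoters are shown because most of these genes are known HIF targets, and the HIF binding site has the core ACGTG or GCGTG, read on either strand. RefSeq promoters (GRCm38.p6), cut to the 250 bases before the transcription start, were matched for 32 of the 35 genes; Bhlhe40, Ndrg1 and Slc2a3 were not matched. Of the 32 genes, 30 (93.8%) held at least 1 core in a window, against 41.5% of all 27025 genes with a window; Gpi1 and Tpi1 held none. By window the share was 39 of 50 (78.0%), against 38.6% of 32851 windows. Because the list was drawn largely from known HIF targets, a higher share is no finding of these data. The comparison set holds all genes with a window, whether or not they were tested here. The members also had more windows per gene (50 for 32 genes, against 32851 for 27025), which favours at least 1 match. ACGTG was found in 21 of the 32 genes and GCGTG in 22, against 18.5% and 30.9% of all genes. A match describes letters and is not evidence of binding, and CACGTG counts as 2 overlapping matches because it reads ACGTG on both strands. The 7 windows below belong to genes on which the results turn: 4 called higher with the Nur77 guide (P4ha2, Ero1l, Hif1a, Bnip3), and 3 called lower with LCA50 (Aldoc, Pdk1, Ankrd37). The sets are not exclusive, since Hif1a was also called lower with LCA50 and Aldoc also higher with the guide. Each runs 5′ to 3′ on the strand of the gene, with matches to either core, on either strand, in capitals; for Aldoc and Pdk1 it is the first of 2 annotated starts.
P4ha2 (chr11:54100674-54100923, plus strand): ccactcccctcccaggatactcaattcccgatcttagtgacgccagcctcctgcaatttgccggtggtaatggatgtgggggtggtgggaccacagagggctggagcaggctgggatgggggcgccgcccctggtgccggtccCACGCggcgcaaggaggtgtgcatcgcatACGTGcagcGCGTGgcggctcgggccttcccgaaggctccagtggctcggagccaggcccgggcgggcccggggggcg
Ero1l (chr14:45318573-45318822, minus strand): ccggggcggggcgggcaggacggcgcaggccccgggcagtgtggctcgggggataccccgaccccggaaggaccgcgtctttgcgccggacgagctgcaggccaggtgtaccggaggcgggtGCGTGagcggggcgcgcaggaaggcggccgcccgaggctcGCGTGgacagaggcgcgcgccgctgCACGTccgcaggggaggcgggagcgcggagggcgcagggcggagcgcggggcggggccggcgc
Hif1a (chr12:73907617-73907866, plus strand): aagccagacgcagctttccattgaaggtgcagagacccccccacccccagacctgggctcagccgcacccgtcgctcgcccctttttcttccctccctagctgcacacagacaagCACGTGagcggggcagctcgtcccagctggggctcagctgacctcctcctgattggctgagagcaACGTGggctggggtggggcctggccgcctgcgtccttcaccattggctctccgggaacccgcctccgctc
Bnip3 (chr7:138909507-138909756, minus strand): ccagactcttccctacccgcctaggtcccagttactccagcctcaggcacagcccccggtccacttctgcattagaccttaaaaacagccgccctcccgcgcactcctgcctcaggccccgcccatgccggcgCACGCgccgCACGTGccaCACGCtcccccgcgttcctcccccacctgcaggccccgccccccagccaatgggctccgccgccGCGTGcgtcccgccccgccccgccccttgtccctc
Aldoc (chr11:78322823-78323072, plus strand): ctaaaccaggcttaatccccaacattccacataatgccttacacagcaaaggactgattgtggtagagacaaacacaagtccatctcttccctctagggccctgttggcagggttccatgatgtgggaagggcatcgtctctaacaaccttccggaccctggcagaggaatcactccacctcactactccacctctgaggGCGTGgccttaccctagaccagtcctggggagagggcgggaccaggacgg
Pdk1 (chr2:71872974-71873223, plus strand): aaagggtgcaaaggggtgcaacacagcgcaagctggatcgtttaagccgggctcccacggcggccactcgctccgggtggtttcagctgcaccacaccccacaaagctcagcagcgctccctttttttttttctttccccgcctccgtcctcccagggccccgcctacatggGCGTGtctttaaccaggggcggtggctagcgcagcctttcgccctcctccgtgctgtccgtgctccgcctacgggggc
Ankrd37 (chr8:45999851-46000100, minus strand): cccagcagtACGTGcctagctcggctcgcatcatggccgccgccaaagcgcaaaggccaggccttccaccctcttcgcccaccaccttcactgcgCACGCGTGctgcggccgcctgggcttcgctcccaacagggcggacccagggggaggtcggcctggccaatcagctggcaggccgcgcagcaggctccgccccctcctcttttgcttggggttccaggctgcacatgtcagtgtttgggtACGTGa
P4ha2 and Ero1l held 3 matches each, Hif1a 3, Bnip3 5 and Ankrd37 4, while Aldoc and Pdk1 held 1 each. Each of these windows thus held at least 1 core. The window of the second annotated start, not shown, held 0 matches for Pdk1 and 1 for Aldoc.

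Levels are compared between genes as CPM per kilobase of exon, averaged over the 18 libraries. The length used was that of all annotated exons of a gene merged, which can exceed the length of the transcript expressed. Ldha, which makes lactate from pyruvate, was highest at 1602, followed by Aldoa (aldolase A, which splits fructose bisphosphate) at 1103, Tpi1 (triose phosphate isomerase) at 763 and Pkm (pyruvate kinase) at 563. Hif1a stood at 141 and was the most abundant member outside the enzymes. Gapdh, a common loading control, was listed at only 62.9 per kilobase, and Pgk1 at 69.8. The merged exons of Gapdh span 4.13 kilobases, and no source used here states how reads matching several places were counted. These low values therefore need not mean few transcripts. Pfkfb4, which makes the activator of phosphofructokinase, was the lowest at 1.06, with 15 to 45 counts per library, and its error is the widest of all members. Eno1 is uncertain, because its near-identical copy Eno1b held 6419 to 8742 counts against 5107 to 7309 for Eno1, so reads may have been split between them. The aldolase copy Aldoart1 held 573 to 937 counts against 13490 to 19238 for Aldoa.

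Within families, 1 isoform usually carried most of the transcript per kilobase. Hexokinase Hk1 made up 68.7% ± 2.3 (SD, n = 18) of Hk1 and Hk2 together. The platelet-type phosphofructokinase Pfkp made up 50.5% ± 1.76, the liver type Pfkl 45.4% ± 1.88 and the muscle type Pfkm 4.16% ± 0.674. These shares depend on the merged exon lengths, 13.4 kilobases for Pfkp and 6.675 for Pfkl. Not divided by length, Pfkp was at 1201 CPM and Pfkl at 538. Slc2a1 (GLUT1) made up 83.8% ± 2.09 of the glucose transporter pair with Slc2a3 (GLUT3). Slc16a1 (MCT1) and Slc16a3 (MCT4, the lactate exporter of glycolytic cells) were near parity, at 53.8% ± 4.35 and 46.2% ± 4.35. Aldoc, the brain-type aldolase, was 0.777% ± 0.299 of the aldolases.

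The first comparison asks what the Nur77 guide did to these genes, averaged over the 3 LCA doses. Each change is given on the log2 scale with its standard error; p-values come from the quasi-likelihood test of edgeR, with Benjamini-Hochberg adjustment over all 11651 genes, and a gene is called when its adjusted p is below 0.05. With the Nur77 guide, 20 of the 35 genes were called higher and 0 lower, while 3.36% of all tested genes were called higher and 1.79% lower. Because the 35 were chosen with earlier results of these data known, the counts and shares describe the list and do not test it. Among the 7425 tested genes with a mean of at least 20 CPM, which include 34 of the 35, 3.42% were called higher and 1.82% lower. Of the 35, 32 had a log2 fold change above 0, and their median was 0.18 against -0.002 over all tested genes. The changes were small: among the 20 called genes the fold ran from 1.11 to 2.05 with a median of 1.18, and 19 of them lay under 1.5-fold. By role, 3 of 4 transporters, 7 of 15 enzymes, 0 of 3 kinases, 7 of 10 HIF targets and 3 of 3 HIF and sensor genes were called higher. Of the CD8 T cell markers, Cd8a was called lower with the guide (-0.23 ± 0.03, adjusted p = 1.83e-05 in edgeR). Cd8b1 (0.12 ± 0.04) and Lck (-0.01 ± 0.05) were not called, and the part of Cd8a-level differences in these changes was not tested. Myeloid marker level differed between the guides without overlap (above), so the marker level and the guide cannot be told apart in these libraries. A fit with the summed myeloid markers as a covariate, added after the data were seen, gave a median of 0.19 with 29 of 35 above 0, but the median standard error went from 0.05 to 0.13. In that fit 2 of the 35 were called, Ero1l (0.96 ± 0.17) and Bhlhe40 (0.54 ± 0.12), and Slc16a3 (-0.11 ± 0.15) and Aldoc (-0.43 ± 0.30) turned negative. Over all 11651 tested genes, 83 were called in that fit, against 600 without the covariate. P4ha2 (1.00 ± 0.35) and Hif1a (0.33 ± 0.11) kept their size there without passing the test.

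**Figure D1:**
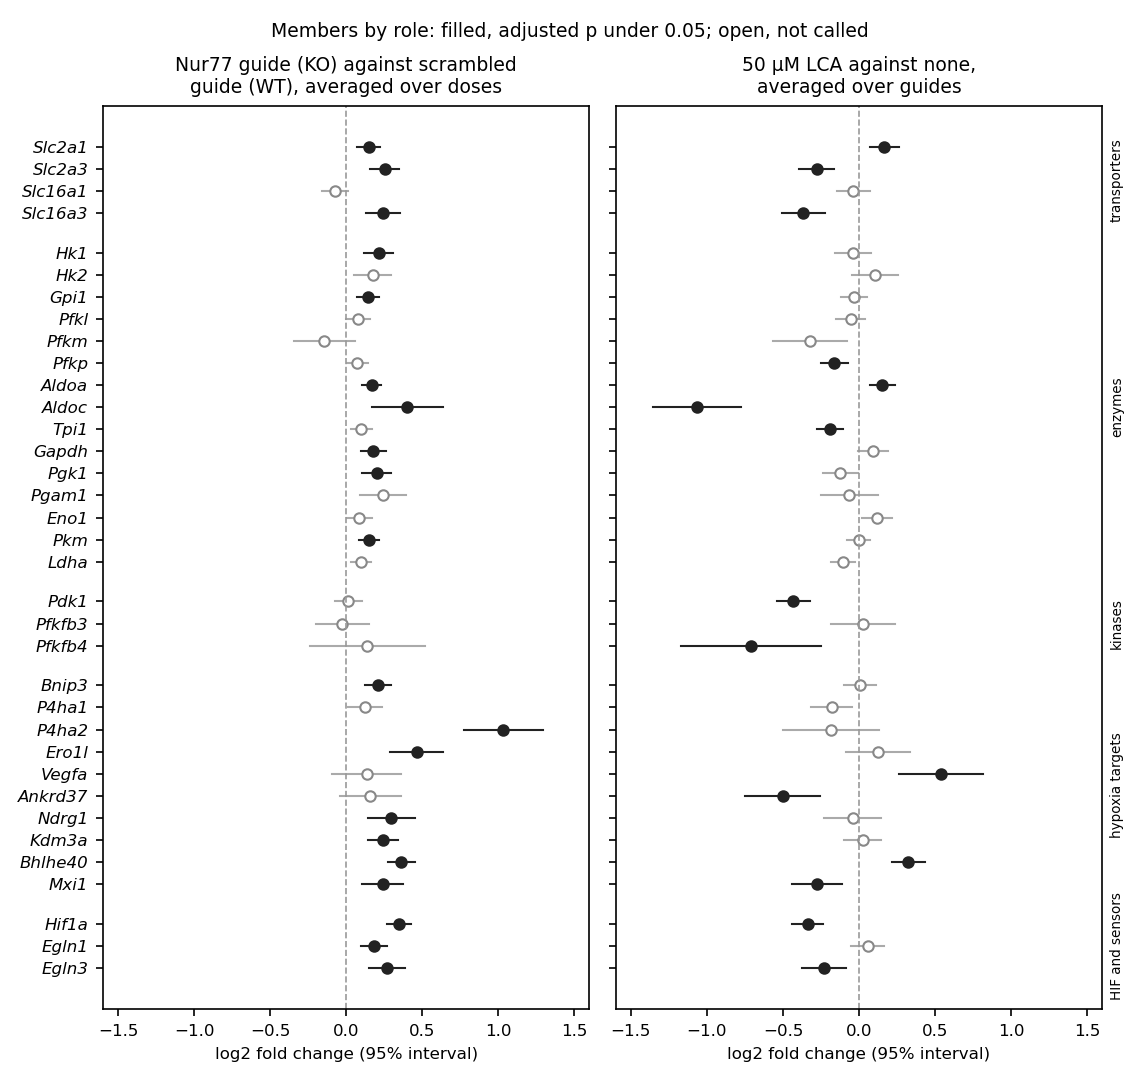
Log2 fold change of each of the 35 genes (rows, grouped by role) with its 95% interval for the Nur77 guide against the scrambled guide averaged over doses (left) and for 50 µM LCA against none averaged over guides (right). Filled points were called below an adjusted p of 0.05; on the left all 20 filled points lie above 0, and on the right 4 lie above and 11 below.

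The largest guide effect was in P4ha2, a subunit of the collagen prolyl hydroxylase that HIF is known to raise. P4ha2 in WT had CPM of 17.8, 17.97 and 13.8 in control, 9.47, 10.5 and 13.5 at LCA10 and 9.66, 15.5 and 16.5 at LCA50. In KO P4ha2 had 37.1, 31.5 and 27.7 in control, 28.8, 23.2 and 17.97 at LCA10 and 35.5, 20.01 and 33.4 at LCA50. The change was 1.03 ± 0.13 (2.05-fold, adjusted p = 8.08e-07). The KO libraries lay above the WT libraries but for a near tie: the lowest KO library (LCA10 replicate 3, 95 counts) and the highest WT library (control replicate 2, 90 counts) were both at 17.97 CPM, and scaled by total counts alone they were at 17.88 and 17.96, in the opposite order. Its paralog P4ha1 was at 0.12 ± 0.05 and was not called, and the share of P4ha2 in the pair per kilobase went from 5.82% ± 0.398 (SD, n = 3) in WT control to 10.1% ± 1.56 in KO control.

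Ero1l, the oxidase that passes electrons to oxygen as disulfides form in the endoplasmic reticulum, had no overlap between all 9 libraries of each guide under either scaling; 0.378% of tested genes were higher in KO without overlap and 0.146% lower, the latter with 0 of the 35. Ero1l in WT had CPM of 237, 240.2 and 228 in control, 199, 222 and 211 at LCA10 and 187, 236 and 256 at LCA50. In KO Ero1l had 293, 289 and 298 in control, 278, 274 and 275 at LCA10 and 487, 295 and 307 at LCA50. The value of 487 came from KO LCA50 replicate 1; the change was 0.46 ± 0.08 with that library and 0.38 without it (adjusted p = 0.00176 and 7.62e-08).

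Hif1a encodes the oxygen-regulated subunit of HIF. Hif1a in WT had CPM of 848, 965 and 805 in control, 692, 662 and 778 at LCA10 and 606, 641 and 626 at LCA50. In KO Hif1a had 981, 993 and 996 in control, 939, 888 and 963 at LCA10 and 934, 808 and 858 at LCA50. At each dose the 3 KO libraries lay above the 3 WT libraries. Averaged over doses the change was 0.35 ± 0.04 (1.27-fold, adjusted p = 1.97e-07). Of the prolyl hydroxylases that mark HIF for destruction, Egln3 and Egln1 were also called higher with the guide, and Egln2, which is not among the 35, was at -0.06 ± 0.09 and was not called.

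Egln3 in WT had CPM of 103, 115 and 117 in control, 83.1, 88.6 and 91.6 at LCA10 and 87.1, 90.4 and 93.9 at LCA50. In KO Egln3 had 135, 117 and 121 in control, 118, 111 and 110.1 at LCA10 and 90.8, 125 and 116 at LCA50. Egln3 in KO was clear of WT at LCA10 and overlapped it at the other doses, and the change was 0.27 ± 0.06 (adjusted p = 0.00208). Egln1 in WT had CPM of 304, 255 and 287 in control, 253, 257 and 255 at LCA10 and 276, 297 and 261 at LCA50. In KO Egln1 had 305, 308 and 305 in control, 306, 282 and 269.8 at LCA10 and 351, 340.5 and 314 at LCA50. For Egln1, the main hydroxylase of HIF, KO lay above WT at each dose without overlap, by 0.18 ± 0.04 (adjusted p = 0.00564). In control cells this was a near tie, with the lowest KO library at 304.6 CPM and the highest WT library at 304.4. Over the doses the ranges of Egln3 and of Egln1 overlapped between guides.

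Bhlhe40 is a transcriptional repressor that HIF and T cell receptor signals both raise. Bhlhe40 in WT had CPM of 322, 289 and 277 in control, 333, 307 and 311 at LCA10 and 373, 363 and 366 at LCA50. In KO Bhlhe40 had 369, 369 and 374 in control, 405, 451 and 413 at LCA10 and 538, 437 and 430.4 at LCA50. The WT LCA50 libraries lay at the level of KO control, and KO was above WT at every dose without overlap. The guide change was 0.36 ± 0.04 (adjusted p = 4.33e-07).

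Other HIF targets had smaller changes. Bnip3 in WT had CPM of 182, 181 and 182 in control, 175, 169.9 and 176 at LCA10 and 164, 184 and 179.97 at LCA50. In KO Bnip3 had 215, 193 and 202 in control, 207, 202 and 183 at LCA10 and 211, 211 and 217 at LCA50. Bnip3, a mitophagy receptor, lay higher in KO at each dose without overlap, and changed by 0.21 ± 0.04. Kdm3a in WT had CPM of 169, 192 and 171 in control, 194, 174 and 179.7 at LCA10 and 171, 185 and 192 at LCA50. In KO Kdm3a had 209, 209 and 232 in control, 193, 211 and 213 at LCA10 and 231, 191 and 231 at LCA50. Kdm3a, a histone H3 lysine demethylase, was clear of WT in control cells alone, and changed by 0.24 ± 0.05. Mxi1 in WT had CPM of 80.5, 70.9 and 85.4 in control, 76.2, 73.1 and 61.7 at LCA10 and 59.7, 66.3 and 61.6 at LCA50. In KO Mxi1 had 72.1, 98.1 and 94.996 in control, 80.9, 83.8 and 88.9 at LCA10 and 82.7, 70.1 and 76.4 at LCA50. Mxi1, a MYC antagonist, overlapped between guides in control cells and changed by 0.24 ± 0.07. Ndrg1, a stress-induced gene, changed by 0.30 ± 0.08. Ndrg1 and Mxi1 were not called (0.23 and 0.22, adjusted p = 0.08 and 0.0611 in edgeR) without the LCA50 library of highest receptor background in each guide, WT LCA50 replicate 3 and KO LCA50 replicate 1. Mxi1 also lost its call when WT control replicate 2, KO control replicate 2 or 3, or WT LCA10 replicate 3 was left out (adjusted p up to 0.0733). Vegfa, the angiogenic growth factor, was at 0.14 ± 0.11 and Ankrd37, an ankyrin protein of the HIF response, at 0.16 ± 0.10, and neither was called.

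**Figure D2:**
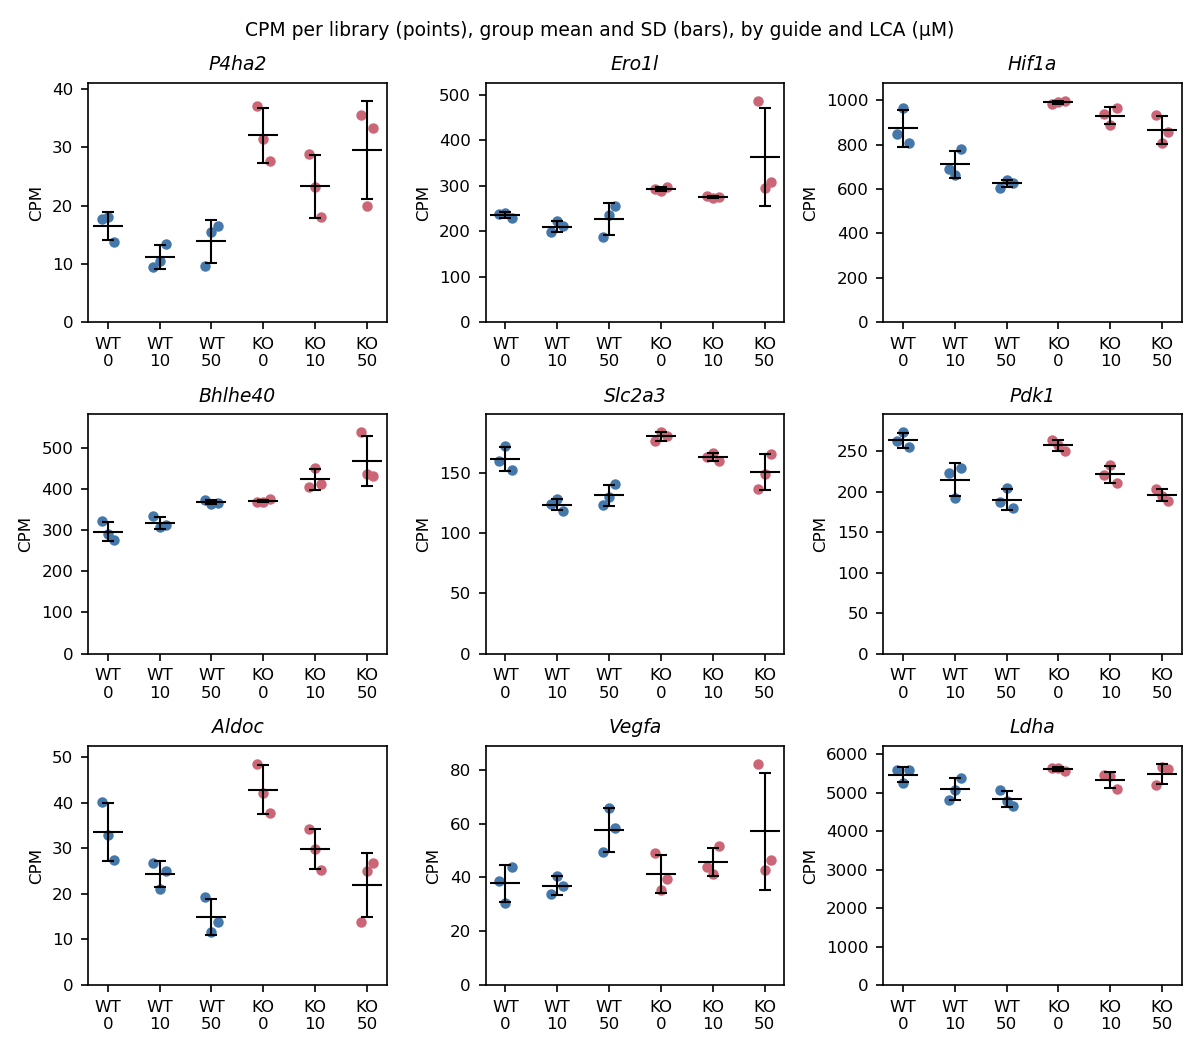
CPM (vertical axes, from 0) of 9 genes in each library (points) with the group mean and SD (bars), by guide and LCA dose in µM. Ero1l lies higher in every KO library than in any WT library, P4ha2 does so but for 1 near tie, Bhlhe40 is higher and Pdk1 and Aldoc are lower at 50 µM than in control in both guides, and 1 KO LCA50 library is high for Ero1l and Vegfa.

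Among the transporters, Slc2a3 had the largest guide effect. Slc2a3 in WT had CPM of 159.8, 173 and 153 in control, 124, 128 and 119 at LCA10 and 123, 130.2 and 141 at LCA50. In KO Slc2a3 had 177, 184 and 181 in control, 163, 167 and 160.4 at LCA10 and 137, 149 and 166 at LCA50. The KO libraries lay above the WT libraries at 0 and 10 µM and overlapped them at 50 µM, and the change was 0.25 ± 0.05 (adjusted p = 0.000465). Slc16a3 in WT had CPM of 296, 251 and 275 in control, 206, 200.003 and 251 at LCA10 and 209, 187 and 196 at LCA50. In KO Slc16a3 had 289, 312 and 289.6 in control, 287, 252 and 255 at LCA10 and 205, 291 and 248 at LCA50. The KO libraries of Slc16a3 were clear of WT at LCA10 only, and the change was 0.24 ± 0.06 (adjusted p = 0.00613). Slc2a1 in WT had CPM of 358, 336 and 362 in control, 336, 329.98 and 349.6 at LCA10 and 390.3, 417 and 381 at LCA50. In KO Slc2a1 had 384, 382 and 379 in control, 394, 410.5 and 380.1 at LCA10 and 453, 421 and 410.4 at LCA50. Slc2a1 in KO lay above WT in control and LCA10 without overlap, and the change was 0.15 ± 0.04 (adjusted p = 0.0119). Slc16a1 lay the other way, at -0.07 ± 0.04, with all libraries from 220 to 271 CPM, and was not called.

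The 7 enzymes called higher stand at several steps of the pathway. Hexokinase Hk1 changed by 0.21 ± 0.05, glucose phosphate isomerase Gpi1 by 0.14 ± 0.03, Aldoa by 0.17 ± 0.03, Aldoc by 0.40 ± 0.12, Gapdh by 0.18 ± 0.04, phosphoglycerate kinase Pgk1 by 0.20 ± 0.05 and Pkm by 0.15 ± 0.03. Their adjusted p ran from 0.000544 (Aldoa) to 0.033 (Aldoc). Aldoc is the weakest of these, and it lost its call (adjusted p up to 0.0973) in 12 of the 18 fits that left out 1 library. Those libraries were replicates 2 and 3 of WT control, WT LCA10, WT LCA50 and KO LCA50, and replicates 1 and 2 of KO control and KO LCA10. Their library values show the direction at each dose.

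Hk1 in WT had CPM of 277, 312 and 302 in control, 265, 276 and 259.7 at LCA10 and 297, 282 and 275 at LCA50. In KO Hk1 had 316, 309 and 348 in control, 312, 307 and 398 at LCA10 and 333, 321 and 305 at LCA50. Hk1 in KO was clear of WT at LCA10 and LCA50 and overlapped it in control cells. Hk2 in WT had CPM of 87.1, 101.2 and 89.6 in control, 85.8, 74.5 and 73.8 at LCA10 and 95.1, 119 and 100.5 at LCA50. In KO Hk2 had 105, 85.996 and 106 in control, 103, 106 and 117 at LCA10 and 105, 95.1 and 105 at LCA50. Hk2, the form that activated T cells induce, was called at LCA10 alone (below). Gpi1 in WT had CPM of 774, 764 and 787 in control, 734, 729 and 759.7 at LCA10 and 762, 756 and 721 at LCA50. In KO Gpi1 had 828, 856 and 838 in control, 772, 827 and 880.1 at LCA10 and 819.9, 862 and 814 at LCA50. Gpi1 was higher in KO without overlap at each dose. Aldoa in WT had CPM of 2999, 2694 and 3016 in control, 2969, 3079.8 and 3168 at LCA10 and 3188, 3031 and 3064 at LCA50. In KO Aldoa had 3165, 3180.3 and 3089 in control, 3417, 3527 and 3269.9 at LCA10 and 3666, 3810.5 and 3482 at LCA50. The same held for Aldoa. Gapdh in WT had CPM of 241, 239 and 263 in control, 237, 238 and 250.4 at LCA10 and 248, 236 and 240.04 at LCA50. In KO Gapdh had 252, 263 and 260.3 in control, 280.01, 277 and 253 at LCA10 and 304, 299 and 299.6 at LCA50. Gapdh overlapped in control cells, was clear of WT at LCA10 and LCA50, and was 1.13-fold higher on average. Pgk1 in WT had CPM of 157, 169 and 145 in control, 140.2, 156 and 138 at LCA10 and 132, 131 and 146 at LCA50. In KO Pgk1 had 177, 167 and 163 in control, 170.3, 176 and 159 at LCA10 and 160.4, 163 and 169.8 at LCA50. Pgk1 was clear of WT at LCA10 and LCA50. Pkm in WT had CPM of 2824, 2529 and 2798 in control, 2534, 2642 and 2759.8 at LCA10 and 2714, 2601 and 2589 at LCA50. In KO Pkm had 2973, 2941 and 2978 in control, 2888, 2914 and 2823 at LCA10 and 2941, 3111 and 3081 at LCA50. Pkm was clear of WT at every dose.

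The other enzymes were closer between the guides. Of the 8 enzymes not called, 7 had values from 0.07 to 0.24 and only Pfkm lay below 0 (-0.14 ± 0.10); Ldha was at 0.10 ± 0.03 (adjusted p = 0.0667) and Pgam1, phosphoglycerate mutase, at 0.24 ± 0.08 (adjusted p = 0.0518). The kinase genes gave 0.01 ± 0.04 for Pdk1, -0.03 ± 0.09 for Pfkfb3 and 0.14 ± 0.19 for Pfkfb4.

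As a share of all counts, the 15 enzymes made up 1.78% ± 0.061 (SD, n = 3) in WT cells without LCA, 1.72% ± 0.061 at 10 µM and 1.70% ± 0.025 at 50 µM. In KO the shares were 1.88% ± 0.009, 1.84% ± 0.039 and 1.92% ± 0.024. At every dose each KO library lay above each WT library, by the narrowest margin at 10 µM (lowest KO 1.80%, highest WT 1.78%). No test was made on this sum, since the genes were chosen with earlier results of these data known.

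**Figure D3:**
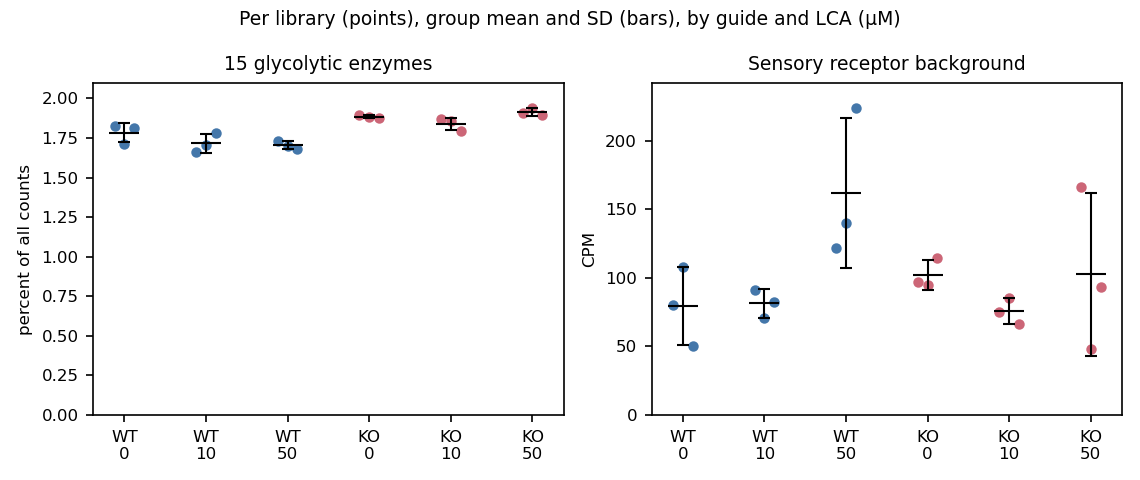
Left, percent of all counts in the 15 glycolytic enzymes, and right, summed CPM of 1477 sensory receptor genes, in each library (points) with group mean and SD (bars), by guide and LCA dose in µM. The enzymes take a higher share in the KO libraries at each dose, while the receptor background is highest in WT LCA50 and in 1 KO LCA50 library.

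Dose by dose, with 3 libraries against 3, fewer genes passed the test. In control cells 2 genes were called higher, P4ha2 (0.96 ± 0.21) and Bhlhe40 (0.33 ± 0.08), where 0.326% of tested genes were called higher. At LCA10 the number was 6: Slc2a3 (0.40 ± 0.08), Hk1 (0.35 ± 0.08), Hk2 (0.48 ± 0.10), P4ha2 (1.06 ± 0.23), Bhlhe40 (0.41 ± 0.08) and Hif1a (0.39 ± 0.07), where 0.412% were called higher. At LCA50 it was 10, with 1.42% of genes called higher: Aldoa, Gapdh, Pkm, Bnip3, P4ha2 (1.09 ± 0.22), Ero1l (0.68 ± 0.14), Ndrg1, Bhlhe40 (0.35 ± 0.08), Hif1a (0.47 ± 0.07) and Egln1. At every dose 0 were called lower, where 0.3%, 0.249% and 0.524% of tested genes were. Of the 35, P4ha2 and Bhlhe40 were called at all 3 doses, and the share of all tested genes so called was not counted. The counts of called genes at each dose rest on single libraries. The LCA50 count was 3 without WT LCA50 replicate 2, 5 without WT LCA50 replicate 3 and 13 without KO LCA50 replicate 1. The LCA10 count was 3 without WT LCA10 replicate 2 or replicate 3, and the control count was 0 to 3 when any library of WT control or KO control, or KO LCA50 replicate 1, was left out.

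The direction was more even than the calls. All 3 KO libraries lay above all 3 WT libraries for 15 of the 35 genes in control cells, 21 at LCA10 and 18 at LCA50, where 8.35%, 7.59% and 8.37% of tested genes did so. In the opposite direction the counts were 1, 0 and 0, against 7.51%, 6.56% and 7.51%. The group mean was higher in KO at all 3 doses for 27 of the 35 genes and for 17.4% of all tested genes. KO lay above WT without overlap at every dose for Gpi1, Aldoa, Pkm, Bnip3, P4ha2, Ero1l, Bhlhe40, Hif1a and Egln1. For Egln1 this was a near tie in control cells. The share of all tested genes with KO above WT without overlap at every dose was not counted. With CPM scaled by total counts alone the counts of KO above WT were 16, 20 and 19, against 8.54%, 7.01% and 7.56% of tested genes.

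The second comparison asks what LCA did. Averaged over guides, 50 µM LCA was followed by 4 genes called higher and 11 called lower out of 35, while 7.86% of tested genes were called higher and 8.66% lower. Among genes of at least 20 CPM these shares were 9.27% and 11.2%. The median change of the 35 was -0.05 against 0.007 over all tested genes. Higher were Bhlhe40, Vegfa, Slc2a1 and Aldoa. Lower were Aldoc, Pdk1, Pfkfb4, Ankrd37, Slc16a3, Hif1a, Slc2a3, Mxi1, Egln3, Tpi1 and Pfkp. By role, 1 of 4 transporters rose and 2 fell, 1 of 15 enzymes rose and 3 fell, 2 of 3 kinases fell, 2 of 10 HIF targets rose and 2 fell, and 2 of 3 HIF and sensor genes fell. Each role but the kinases and sensors thus held genes called in both directions. T cell markers moved with LCA50 as well. The CD8 T cell markers summed to 4448 to 4538 CPM in WT control and 3761 to 4283 in WT LCA50, and to 4351 to 4390 and 3472 to 4303 in KO, with 2 of 7 called lower (Cd8b1 at -0.47 ± 0.05). The 4 CD4 T cell markers, with Cd4 itself near 0, went from 12.6 to 17.97 CPM up to 20.7 to 25.7 in WT and from 14.3 to 18.59 up to 18.62 to 36.2 in KO, and Cd79b of the B cell receptor, at 16 to 55 counts, fell by 0.84. Their part in the changes of the 35 genes was not tested.

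Aldoc had the largest change. Aldoc in WT had CPM of 40.3, 32.9 and 27.5 in control, 26.9, 21.2 and 24.997 at LCA10 and 19.3, 11.7 and 13.8 at LCA50. In KO Aldoc had 48.6, 42.2 and 37.9 in control, 34.2, 29.97 and 25.4 at LCA10 and 13.8, 24.96 and 26.9 at LCA50. The LCA10 means lay between. The LCA50 libraries all lay below the control libraries. This held for 3 of the 35 genes (Aldoc, Tpi1 and Pdk1) and 3.55% of tested genes, and the opposite for 0 and 2.66%. The change in Aldoc was -1.06 ± 0.14 (0.479-fold, adjusted p = 1.71e-06). Its share of the aldolases went from 1.02% ± 0.194 to 0.426% ± 0.101 in WT and from 1.20% ± 0.137 to 0.534% ± 0.179 in KO, while Aldoa, the major form, rose by 0.15 ± 0.04.

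Pdk1 encodes the kinase that shuts off pyruvate dehydrogenase and so keeps pyruvate out of mitochondria. Pdk1 in WT had CPM of 262, 274 and 255 in control, 223, 192 and 229.9 at LCA10 and 187, 204 and 179.5 at LCA50. In KO Pdk1 had 264, 258 and 250.2 in control, 221, 233 and 211 at LCA10 and 204, 195 and 188 at LCA50. The groups did not overlap between control and either dose in either guide, and the change was -0.43 ± 0.05 at LCA50 (adjusted p = 4.14e-07) and -0.25 ± 0.05 at LCA10 (adjusted p = 0.00608). At each dose the WT and KO libraries of Pdk1 overlapped. Pfkfb4 in WT had CPM of 7.43, 5.59 and 6.07 in control, 4.83, 4.24 and 5.66 at LCA10 and 3.86, 3.21 and 3.39 at LCA50. In KO Pfkfb4 had 8.89, 4.71 and 7.099 in control, 4.69, 4.22 and 4.73 at LCA10 and 4.29, 5.55 and 4.12 at LCA50. Counts were few here (15 to 45), and Pfkfb4 changed by -0.71 ± 0.23 (adjusted p = 0.0272), from 4.71 to 8.89 CPM in the 6 control libraries to 3.21 to 5.55 in the 6 LCA50 libraries, and lost its call (adjusted p up to 0.0905) without WT control replicate 1, KO control replicate 1, WT LCA50 replicate 2 or 3, or KO LCA50 replicate 1 or 3. Pfkfb3, the more abundant of the pair, ran from 32.9 to 49.6 CPM and was at 0.02 ± 0.10.

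Tpi1 was the third gene without overlap. Tpi1 in WT had CPM of 2277, 2211 and 2243 in control, 1877, 2011 and 2152 at LCA10 and 1955, 1820.04 and 1739 at LCA50. In KO Tpi1 had 2269, 2248 and 2269 in control, 2228, 2160.2 and 1987 at LCA10 and 2084, 2110.04 and 2182 at LCA50. Its LCA50 libraries were lower than the controls by more in WT than in KO (the test of that difference is given below), and the averaged change was -0.19 ± 0.04 (adjusted p = 0.00133). Ldha, the most abundant member, was at -0.11 ± 0.04 (adjusted p = 0.0532). Pfkp changed by -0.16 ± 0.04 (adjusted p = 0.00814), and its exons share 748 bases with Pitrm1 on the other strand, so reads of the pair cannot be told apart if strand was ignored in counting, which no source used here states. Pfkp in WT had CPM of 1230.3, 1239 and 1232 in control, 1109.7, 1149.8 and 1153 at LCA10 and 1108, 1172 and 1134 at LCA50. In KO Pfkp had 1292, 1324 and 1365 in control, 1247, 1154 and 1267 at LCA10 and 1033, 1235 and 1181 at LCA50. In both guides the control libraries of Pfkp lay highest.

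Ldha and Pfkm were called with LCA50 in WT cells only, and the difference between guides is tested below. Ldha in WT had CPM of 5578, 5243 and 5586 in control, 4818, 5063 and 5387 at LCA10 and 5061, 4778 and 4643 at LCA50. In KO Ldha had 5649.8, 5639 and 5559 in control, 5468, 5426 and 5094 at LCA10 and 5195, 5674 and 5605 at LCA50. The WT LCA50 libraries lay below the WT controls, and those of KO overlapped theirs. Pfkm in WT had CPM of 36.1, 29.95 and 30.9 in control, 22.8, 24.2 and 27.3 at LCA10 and 19.5, 20.5 and 24.2 at LCA50. In KO Pfkm had 21.5, 24.1 and 27.6 in control, 20.1, 20.3 and 25.2 at LCA10 and 18.1, 27.7 and 24.9 at LCA50. Pfkm is the scarcest phosphofructokinase, and its WT controls were its highest libraries. Of the enzymes with no call in any comparison, Pfkl ran from 454 to 580 CPM, Pgam1 from 36.3 to 60.6 and Eno1 from 1020 to 1448, while Pkm was at -0.003 ± 0.04 with LCA50.

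Among the transporters 1 rose and 2 fell. Slc2a1 rose by 0.17 ± 0.05 (adjusted p = 0.0106), from 336 to 384 CPM in the 6 control libraries (median 371) to 381 to 453 in the 6 LCA50 libraries (median 414). Slc2a3 changed by -0.28 ± 0.06 (adjusted p = 0.000716), from 153 to 184 (median 175) to 123 to 166 (median 139). Both pairs of ranges overlapped. In WT cells the share of Slc2a1 in the pair per kilobase went from 81.8% ± 1.53 (SD, n = 3) to 86.1% ± 1.16, and in KO cells from 81.4% ± 0.359 to 85.4% ± 1.83. Slc16a3 changed by -0.37 ± 0.07 (adjusted p = 0.000244), from a median of 289 CPM to 207, while Slc16a1 was at -0.04 ± 0.05.

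Among the HIF targets, Vegfa and Bhlhe40 rose and Ankrd37 and Mxi1 fell. Vegfa in WT had CPM of 38.8, 30.6 and 43.9 in control, 33.6, 40.6 and 36.7 at LCA10 and 49.4, 65.7 and 58.3 at LCA50. In KO Vegfa had 49.2, 35.3 and 39.4 in control, 44.02, 41.4 and 51.7 at LCA10 and 82.2, 42.8 and 46.5 at LCA50. The LCA50 libraries lay above the controls without overlap in WT and with overlap in KO, where the highest value was again that of replicate 1. The averaged change was 0.54 ± 0.13 (adjusted p = 0.00624), and 0.36 without that library (adjusted p = 0.0167). Bhlhe40 rose by 0.32 ± 0.05 (adjusted p = 3.8e-05). Ankrd37 in WT had CPM of 33.7, 27.4 and 31.4 in control, 20.7, 23.01 and 22.8 at LCA10 and 23.6, 16.9 and 16.5 at LCA50. In KO Ankrd37 had 28.8, 24.5 and 34.1 in control, 30.2, 24.9 and 23.5 at LCA10 and 26.2, 24.2 and 20.6 at LCA50. It changed by -0.50 ± 0.12 (adjusted p = 0.00315), without overlap in WT only; its exons overlap those of Ufsp2 (125 to 263 counts) on the other strand by 57 bases. Hif1a itself changed by -0.34 ± 0.05 (adjusted p = 5.04e-06) and Egln3 by -0.23 ± 0.07 (adjusted p = 0.0204), while Egln1 was at 0.06 ± 0.05. Egln3 lost its call without WT control replicate 3, KO control replicate 1 or KO LCA50 replicate 1 (adjusted p up to 0.0806), and Mxi1 (-0.27 ± 0.08) without WT control replicate 3 or KO control replicate 2 (up to 0.0648). P4ha2 and Ero1l, the 2 genes of largest guide effect, were at -0.18 ± 0.15 and 0.12 ± 0.10 with LCA50.

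Within WT cells, 50 µM LCA gave 2 genes called higher (Vegfa 0.61 ± 0.19 and Bhlhe40 0.31 ± 0.08) and 9 lower, where 3.66% of tested genes were called higher and 4.93% lower. The 9 were Aldoc (-1.17 ± 0.21), Ankrd37 (-0.70 ± 0.17), Pfkm (-0.60 ± 0.17), Hif1a (-0.48 ± 0.07), Pdk1 (-0.47 ± 0.08), Slc16a3 (-0.47 ± 0.10), Slc2a3 (-0.30 ± 0.08), Tpi1 (-0.29 ± 0.06) and Ldha (-0.18 ± 0.05). All 3 LCA50 libraries lay above all 3 controls for 4 of the 35 genes and below them for 16, against 13.1% and 13.7% of tested genes. Leaving out 1 library at a time, the call of Vegfa was lost in 11 of 18 fits (adjusted p up to 0.192), those of Ldha in 4, Pfkm and Slc2a3 in 3 each, Ankrd37 in 2 and Bhlhe40 in 1. In this contrast 3 of the 8 myeloid markers were also called lower, while their sums overlapped (44.6 to 68.6 and 45.5 to 52.8 CPM). Receptor background was higher in every WT LCA50 library than in any WT control library. With that background as a covariate 4 genes remained called, namely Aldoc (-0.99), Hif1a (-0.60), Pdk1 (-0.51) and Tpi1 (-0.26), and without WT LCA50 replicate 2, with no covariate, there were 6. Within KO cells, 50 µM LCA gave 3 genes called higher, Bhlhe40 (0.34 ± 0.08), Aldoa (0.22 ± 0.06) and Gapdh (0.22 ± 0.07), and 4 lower, Aldoc (-0.95 ± 0.19), Pdk1 (-0.39 ± 0.08), Slc2a3 (-0.26 ± 0.08) and Pfkp (-0.21 ± 0.06), where 2.93% of tested genes were called higher and 3.42% lower. Without overlap 6 of the 35 lay higher and 6 lower, against 11.5% and 11.9%. Of these calls, Gapdh was lost in 15 of 18 fits that left out 1 library (adjusted p up to 0.158), Slc2a3 in 14 (up to 0.261), Pfkp in 4, Aldoa in 2 and Bhlhe40 in 1, while Aldoc and Pdk1 were lost in 0. The count of 7 was 3 without KO control replicate 3, and 4 without KO control replicate 1 or 2 or KO LCA50 replicate 1.

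At 10 µM few genes passed, and most of these genes lay lower. Averaged over guides 0 were called higher and 4 lower, where 1.01% and 0.807% of tested genes were called: Slc2a3 (-0.26 ± 0.06), Pdk1 (-0.25 ± 0.05), Ndrg1 (-0.38 ± 0.09) and Hif1a (-0.19 ± 0.05). Of the 35 genes, 29 had a change below 0, with a median of -0.12 against 0.002 for all tested genes. Without overlap 0 lay higher and 2 lower, against 0.781% and 0.798%. In WT cells 2 were called, both lower, Slc2a3 (-0.39 ± 0.08) and Hif1a (-0.30 ± 0.07), where 0.215% of tested genes were called higher and 0.172% lower. All 3 LCA10 libraries lay below all 3 controls for 18 of the 35 genes and above them for 0, against 7.07% and 6.81% of tested genes. The red cell and platelet markers were also lower in every WT LCA10 library than in any WT control library (above), and their part in this was not tested. In KO cells 0 were called by edgeR and 0 by DESeq2 (0.206% of tested genes higher and 0.12% lower by edgeR). By edgeR 7 of the 35 and 910 of all 11651 tested genes had an unadjusted p under 0.05. By DESeq2 these numbers were 8 and 872. Without overlap 2 of the 35 lay higher and 11 lower, against 7.75% and 7.24%. The averaged count of 4 was 2 to 8, and that in WT 0 to 5, as single libraries were left out. The averaged count moved most without KO control replicate 1 or 3, WT LCA10 replicate 1 or 2, or KO LCA50 replicate 1. The count in WT moved without those, WT control replicate 1 or 2, KO control replicate 2 or WT LCA50 replicate 2. Control libraries are shared by the LCA10 and LCA50 comparisons, so the lower values in both are not independent.

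Between the doses, 5 genes were higher at 50 than at 10 µM, Vegfa (0.48 ± 0.13), Ndrg1 (0.34 ± 0.10), Bhlhe40 (0.18 ± 0.05), Egln1 (0.18 ± 0.05) and Slc2a1 (0.17 ± 0.05), and 2 lower, Aldoc (-0.57 ± 0.15) and Pdk1 (-0.18 ± 0.05), where 2.26% of tested genes were called higher and 3.47% lower. This count of 7 was 1 without WT LCA50 replicate 2 and 1 with the receptor background as a covariate, and 3 or 4 without any single library of WT LCA10 or KO LCA10, WT LCA50 replicate 3 or KO LCA50 replicate 1. Ndrg1 in WT had CPM of 47.3, 45.5 and 47.5 in control, 33.3, 35.7 and 39.8 at LCA10 and 40.98, 44.4 and 38.8 at LCA50. In KO Ndrg1 had 57.3, 49.6 and 56.5 in control, 44.02, 43.9 and 36.5 at LCA10 and 71.98, 51.5 and 51.2 at LCA50. This gene was thus lower at 10 µM than in control and higher at 50 than at 10 µM.

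The third comparison asks whether the response to LCA differed between the guides. At 50 µM 0 of the 35 genes and 0 of all tested genes were called by edgeR (0%), and DESeq2 called 1 gene, not among the 35. An unadjusted p under 0.05 was found for 4 of the 35 and 729 of all genes, and at 10 µM for 3 and 382, with 0 called. The smallest p at 50 µM belonged to Hif1a, which changed by -0.48 ± 0.07 in WT and -0.19 ± 0.07 in KO. The difference was 0.29 with a 95% interval of 0.09 to 0.49 (adjusted p = 0.728 in edgeR's test over all genes). Gapdh (0.25), Tpi1 (0.20) and Pfkm (0.55) were the other 3. For Aldoc the difference was 0.22 with an interval of -0.36 to 0.80, and for Pdk1 0.08 with an interval of -0.14 to 0.29. A difference between the guides in the response was thus not shown for any of the 35, and for Aldoc the upper bound of 0.80 is most of the size of its fall. With receptor background as a covariate 1 of the 35 was called, Ero1l (0.71 ± 0.14, adjusted p = 0.0423).

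The guide and LCA50 contrasts both use all the control and LCA50 libraries, so their values are set side by side without a joint count. Hif1a stood at 0.35 for the guide and -0.34 for LCA50, Slc2a3 at 0.25 and -0.28, Slc16a3 at 0.24 and -0.37, and Aldoc at 0.40 and -1.06. Bhlhe40 stood at 0.36 and 0.32, Slc2a1 at 0.15 and 0.17, and Aldoa at 0.17 and 0.15.

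**Figure D4:**
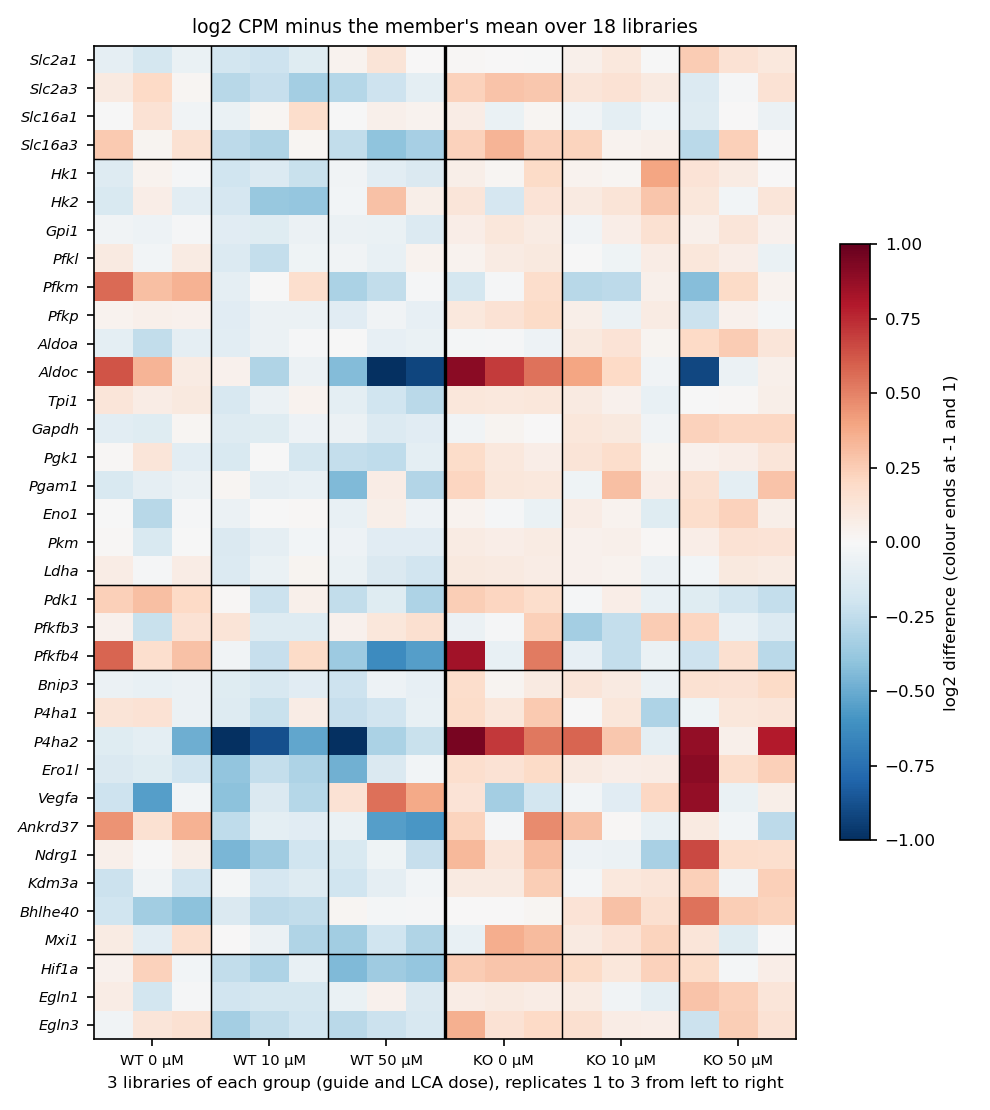
Log2 CPM of each of the 35 genes (rows, grouped by role) in each of the 18 libraries (columns, by guide and LCA dose), minus the mean of that gene over the libraries; red is higher and blue lower, and the colour ends at -1 and 1. P4ha2 is blue in WT and red in most KO libraries, Aldoc and Pfkfb4 pale or turn blue from control to 50 µM in both guides, and KO LCA50 replicate 1 is dark for Ero1l, Vegfa and Ndrg1.

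Other genes of the same pathways were taken from 8 lists, also chosen with earlier results of these data known. Of 27 tested other HIF targets, 11 were called higher and 1 lower with the Nur77 guide, where 3.36% of all tested genes were called higher and 1.79% lower, and their median change was 0.23. Stc2, a secreted glycoprotein, changed by 0.66 ± 0.09, Hmox1, the haem-degrading oxygenase, by 0.54 ± 0.14, Hilpda, a lipid droplet protein, by 0.27 ± 0.08 and Bnip3l, the paralog of Bnip3, by 0.23 ± 0.06, while Tfrc, the transferrin receptor, changed by -0.22 ± 0.05. Of these calls, those of Hmox1, Hilpda and Bnip3l were lost in 11, 11 and 8 of the 18 fits that left out 1 library (adjusted p up to 0.0746, 0.0911 and 0.0651). With 50 µM LCA 3 of the 27 were higher and 6 lower, where 7.86% and 8.66% of all tested genes were: Hmox1 rose by 1.20 ± 0.18, Stc2 by 0.58 ± 0.11 and Nfil3, a basic leucine zipper factor, by 0.50 ± 0.07, and Tfrc changed by -0.70 ± 0.06, Bnip3l by -0.60 ± 0.08 and Hilpda by -0.45 ± 0.10. The 10 tested core genes of the HIF machinery (partner subunits, other hydroxylases, degradation and cofactors) had 0 called in either contrast, and Os9, a lectin linked to HIF degradation, was at 0.01 ± 0.04 with the guide and -0.09 ± 0.05 with LCA50.

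The remaining lists are read against the same shares of all tested genes, 3.36% higher and 1.79% lower with the guide and 7.86% and 8.66% with LCA50. Of 8 tested pentose phosphate genes 1 was higher with the guide, and with LCA50 3 were lower, Taldo1 (-0.24 ± 0.06), Pgd (-0.23 ± 0.06) and Tkt (-0.15 ± 0.05). Of 10 tested genes of gluconeogenesis and glycogen, Gys1 (0.33 ± 0.08) and Pgm2 (0.26 ± 0.05) were higher with the guide. With LCA50 Pck2, the mitochondrial phosphoenolpyruvate carboxykinase, rose by 0.80 ± 0.09 and Gys1, glycogen synthase, by 0.40 ± 0.10, while Pygb (-0.20 ± 0.06) and Pgm2 (-0.17 ± 0.06) fell. Of 13 other isoforms of glycolytic enzymes 0 were higher and 1 lower with the guide, and 1 rose with LCA50, Adpgk, the ADP-dependent glucokinase (0.50 ± 0.09). Of 12 genes of pyruvate entry into mitochondria 0 were called with the guide, and 1 rose with LCA50, Pcx, pyruvate carboxylase (0.57 ± 0.12). Of 5 tested other sugar and monocarboxylate transporters and their chaperone, Bsg, which brings MCT4 to the membrane, was higher with the guide (0.16 ± 0.04) and lower with LCA50 (-0.19 ± 0.05), and Slc16a6 rose with LCA50 (0.40 ± 0.08). Of 7 tested glucose-sensing genes 1 was called higher with the guide and Mlxip lower with LCA50 (-0.21 ± 0.07). The LCA50 calls of Mlxip, Pgm2 and Tkt were lost in 7, 6 and 6 of the 18 fits that left out 1 library (adjusted p up to 0.125, 0.13 and 0.102), and that of Bsg without WT control replicate 1 (0.0613).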

How the data were processed

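RNA of 18 libraries was sequenced as ultra-low-input cDNA libraries, per the labels' protocols. The authors deposited raw counts per gene symbol, with no normalization. The submitters' processing notes name STAR, HOMER and DESeq2 and the builds GRCm38 and mm10, without roles; no source used here says if counting was stranded. Of 24537 genes, 2231 had no count and 11651 passed edgeR's filterByExpr. Counts were scaled by TMM and fitted with edgeR 4.0.16 (robust quasi-likelihood, R 4.3.3) over all 18 libraries with 6 group means and 13 contrasts, after tests on simulated data. Precision is limited by 4113713 to 5945518 counts per library and a biological coefficient of variation of 0.0984. Files were read as whole counts, and CPM use TMM-scaled totals. The named genes are all 35 and, from each other list, up to 3 called higher and 3 called lower with LCA50 averaged over guides (smallest p first); a list with no call gives its most abundant member. The 35 genes, their roles, and the other lists were chosen with earlier results of these data known. Alternatives were DESeq2 1.42.0, its size factors in edgeR, other filters, a fit of the compared groups, a replicate block, covariates, CPM by total counts alone, and leaving out libraries.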

Additional observations from a re-analysis of the deposited data

How the results depend on the processing

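Over the 13 comparisons the 35 genes gave 84 called results. DESeq2 kept 84 of them, its size factors in edgeR 82, a minimum mean of 5 CPM 83 and no filter 76, and 61 to 78 were kept as each library was left out in turn. A fit of only the compared groups kept 45 of the 64 calls to which it applies. The receptor background as a covariate kept 63, and leaving out WT LCA50 replicate 3 with KO LCA50 replicate 1 kept 66. The myeloid markers as a covariate kept 42. Genes of few counts (Pfkfb4, P4ha2 and Aldoc, 15 to 246 per library) limit what this depth can show. The cause of a change in a count between settings was not tested.

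Numbers of called genes that moved by more than 1.5 times were these. A fit of only the compared groups, with fewer libraries, gave 3 for KO LCA50 against KO control (7 with all), 4 for WT LCA10 against WT control (2), 10 for LCA10 averaged (4), 1 for LCA50 against LCA10 (7), 4 for KO against WT in control cells (2) and 1 at LCA50 (10); it is the same fit for the averaged guide effect. With the receptor background as a covariate the numbers were 4 for WT LCA50 (11), 7 for LCA10 averaged, 1 for LCA50 against LCA10, 1 for the guide in control cells and 1 for the difference of the LCA50 response (0). Without the 2 LCA50 libraries of highest background they were 4 for KO LCA50, 5 for WT LCA10, 9 for LCA10 averaged and 3 for LCA50 against LCA10. LCA10 averaged gave 7 with DESeq2 and 7 without a filter. With the myeloid markers as a covariate, added after the data were seen, they were 4 for KO LCA50, 7 for LCA10 averaged, 2 for LCA50 against LCA10, 0 for the guide in control cells, 2 at LCA10 (6), 2 at LCA50 and 2 for the averaged guide effect (20), where Slc16a3 (-0.11) and Aldoc (-0.43) reversed. With CPM scaled by total counts alone, also added after the data were seen, the lowest KO library of P4ha2 minus the highest WT library gave -0.073 CPM, against 0.0022 with TMM, Pfkp and Slc2a1 joined the genes without overlap for LCA50 averaged, and Slc16a1 lay lower in KO at LCA50 without overlap.

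Same-numbered libraries did not deviate together: over 45 pairs the median correlation was -0.00125 (range -0.218 to 0.0881), and 3 of 18 libraries correlated best with their own number. With the replicate number as a block, the replicate block gave 1 for WT LCA10 and 6 for the guide at LCA50, 20 for the averaged guide effect and 15 for LCA50 averaged, and 76 of the 84 calls were kept.

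Leaving out 1 library at a time gave 6 to 13 for WT LCA50, 3 to 7 for KO LCA50, 0 to 5 for WT LCA10, 2 to 8 for LCA10 averaged, 13 to 17 for LCA50 averaged and 1 to 7 for LCA50 against LCA10. For the guide it gave 0 to 3 in control cells, 3 to 9 at LCA10, 3 to 13 at LCA50 and 18 to 23 averaged, and 0 for both differences of response.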
